A study of Mus musculus with 14 samples.

Results

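Rab GTPases were examined across the CA3 field of the hippocampus in mice with a mutation of Dcx, which lies on the X chromosome and encodes doublecortin, a protein that binds microtubules. Every gene whose array symbol is Rab followed directly by a number, with or without a letter, was taken. The array held 57 such genes on 87 probes, and 46 of them were measured, meaning that the brightest probe had a detection p under 0.05 on at least 4 of 14 arrays. These 46 stood among 9355 features measured in all. A further 8 symbols that begin with Rab and a digit name regulators or effectors (such as Rab11fip2 and Rab3gap1) and were not counted as Rab genes.

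Rab proteins are small GTPases that switch between an active GTP-bound form on a membrane and an inactive GDP-bound form that is kept soluble. Exchange factors turn them on, GTPase-activating proteins turn them off, and the active form recruits effectors such as tethers, motors and coats. Each member marks particular membranes, so the family as a whole directs traffic between the endoplasmic reticulum, the Golgi apparatus, endosomes, lysosomes and the cell surface. In neurons it also acts in synaptic vesicle release, axonal transport and the recycling of receptors at synapses.

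In Dcx mutants the CA3 pyramidal cells lie in an inner and an outer layer, and both were dissected apart. The inner layer (SPI) of Dcx mutants came from animals 146, 147, 148 and 166, the outer layer (SPE) of Dcx mutants from animals 146, 147, 148, 165 and 166, and undivided CA3 of wild-type mice (WT) from animals 142, 144, 145, 199 and 206. All 10 mice were adults on the Sv129Pas background, and each of the 14 RNA samples, purified from pooled dissected pieces, was hybridised to 1 bead array. The sources used here do not give the part of Dcx that was mutated, the sex of the mice or the chip on which a sample lay. Samples were grouped by their titles, because the bracketed layer code in the region field of the outer samples is the inner layer's. WT tissue was not divided into layers, so a difference between SPI and WT compares a layer with the whole field.

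The SPI arrays were dimmer and held more transcripts of other cell types, and both facts stand beside every result below. Mean raw signal was 119 to 362 intensity units on SPI arrays, 279 to 482 on SPE arrays and 371 to 515 on WT arrays, with SPI 147, SPI 148 and SPE 148 the dimmest. Detection covered 36 to 44 of the 46 Rab genes on SPI arrays, 41 to 44 on SPE arrays and 42 to 46 on WT arrays. The summed level of 13 astrocyte markers was 18146 to 24119 units in SPI, 10735 to 12615 in SPE and 10341 to 12349 in WT. That of 14 mature oligodendrocyte markers was 11342 to 20484 in SPI, 7026 to 7619 in SPE and 5631 to 7877 in WT, and that of 11 interneuron markers was 17468 to 20890 in SPI, 10934 to 12224 in SPE and 12436 to 14370 in WT. For 18 pan-neuronal markers the sums were 98362 to 111469 in SPI, 103512 to 118939 in SPE and 115503 to 119589 in WT, and for 10 CA3 pyramidal markers they were 28052 to 35009 in SPI, 29082 to 37448 in SPE and 32709 to 37067 in WT. In SPI against WT, limma called 7 of the astrocyte, 10 of the oligodendrocyte, 8 of the interneuron and 7 of 11 microglial markers higher, with 2 of the interneuron markers lower (Cck and Nos1), and 6 of the pan-neuronal markers lower and 2 higher. Fcrls, of microglia, was the 1 measured marker detected on no array of a whole group (WT). Of the 10 CA3 pyramidal markers, 1 was called higher in SPI than in WT (Bok, log2 difference 0.74). Another 2 were called lower (Cpne4 at -0.91 and Spock1 at -1.13). Grik4, Bok, Cpne4 and Spock1 were each detected on every array. Of 5 CA1 pyramidal markers, 2 were called higher in SPI than in WT (Mpped1 at 0.84 and Pou3f1 at 1.07) and 1 lower (Dkk3 at -0.27). Their sums were 5617 to 6422 in SPI, 6275 to 7194 in SPE and 6511 to 7329 in WT. Of 2 dentate granule markers, 1 was called higher (C1ql2 at 1.47), with sums of 203 to 685 in SPI, 100 to 211 in SPE and 103 to 191 in WT. Dcx itself was read at log2 levels of 4.64 to 5.64 in SPI, 4.85 to 5.79 in SPE and 5.50 to 5.92 in WT, with neither layer past the test. The part of cell composition and of array brightness in the Rab results was not tested unless a value says otherwise.

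Against WT, 13 of 46 Rab genes differed in SPI, 5 of them higher and 8 lower (limma, animal as a random block, adjusted p under 0.05 over the 9355 features). These were 28.3% of the Rab genes, beside a background of 24.5% of all features. In direction the members split 10.9% higher and 17.4% lower, beside 13.6% and 10.9% of all features. At an unadjusted p under 0.05 there were 19 of 46, beside 37.9% of all features. Their median difference was -0.071 on the log2 scale, beside 0.035 for all features. With median scaling over all probes in place of quantile normalisation, which moved the median of all features to -0.85, 0 members were higher and 24 lower. There 43% of all features were called. With median scaling over the probes detected on all 14 arrays, an alternative chosen after seeing the data that moved the median of all features to 0.34, 5 were higher and 4 lower. In that fit 34.1% of all features were called. Relative to the median of all features the 13 kept their direction under both scalings, and directions below are meant in that sense. Without the 3 dimmest arrays 11 were called, 8 of them among the 13, beside 19.7% of all features. With array brightness (log2 mean raw signal) as a covariate 2 were called, beside 5.38% of all features. These were Rab31 and, from outside the 13, the lower Rab1a, named after its value was seen. Without WT 145 the count was 8, beside 17.4% of all features. The arrays of both groups did not overlap for 11 members, 23.9% of them, against 21.5% of all features. Shares this near the background say nothing particular about the family, and what follows is about the single members. All levels and differences below are log2 normalised signal, differences are given with the fit's standard error (SE), and 1 unit is a 2-fold change. Less RNA of a gene per cell and fewer cells of a type that carries it cannot be told apart in such pooled tissue.

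**Figure D1:**
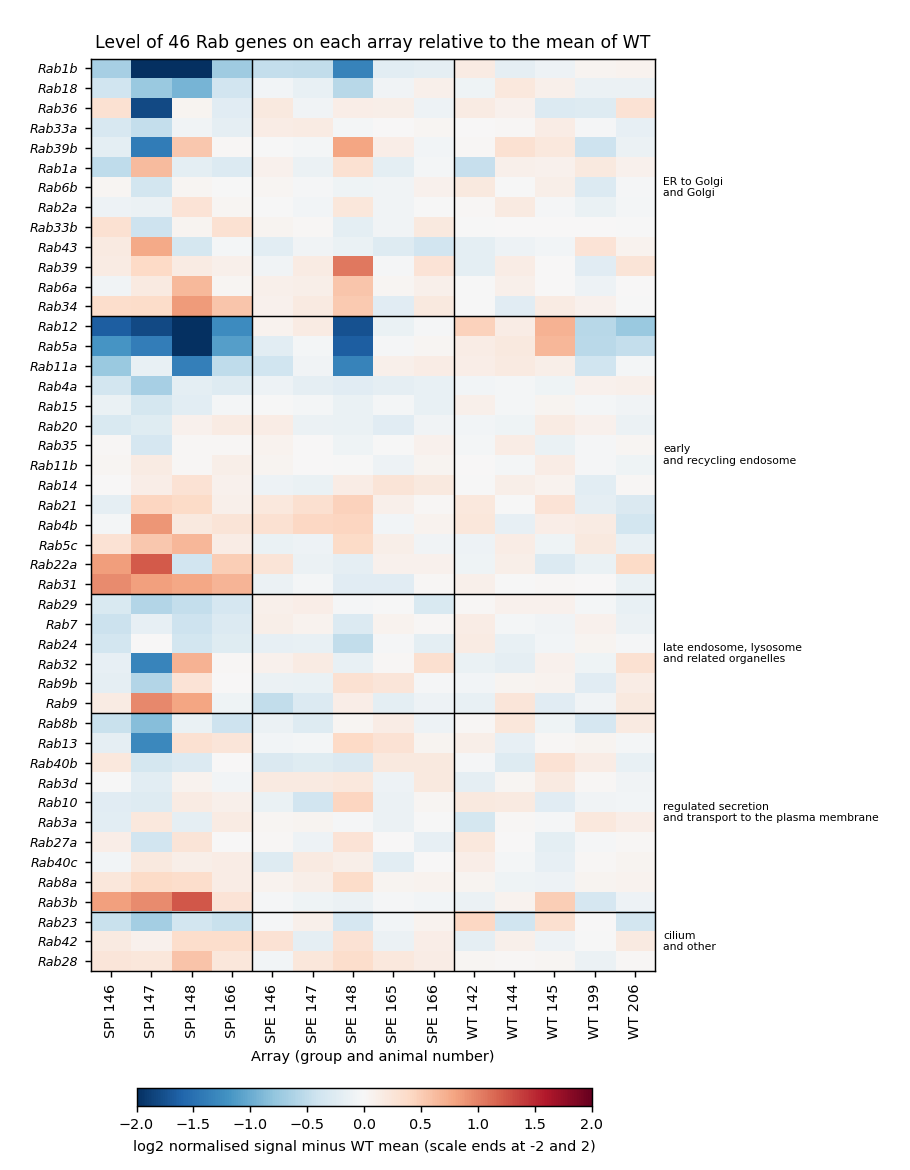
Log2 normalised signal of the 46 measured Rab genes on each of the 14 arrays, minus the mean of the 5 WT arrays, with rows grouped by membrane compartment and the colour scale ending at -2 and 2. Rab12, Rab5a and Rab1b are darkest blue across the SPI arrays and on SPE 148, while Rab31 and Rab3b are red on all 4 SPI arrays and near WT on the SPE arrays.

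The early and recycling endosome held called members in both directions. Of 14 measured members, 2 were higher in SPI (Rab31 and Rab5c) and 3 lower (Rab12, Rab5a and Rab4a), and the median difference was 0.002. Rab31, also called Rab22b, carries cargo between the trans-Golgi network and endosomes and has been described in cells of the astroglial lineage. Its level was 9.83, 9.71, 9.66 and 9.57 in SPI of animals 146, 147, 148 and 166. It was 8.77, 8.85, 8.66, 8.66 and 8.91 in SPE of animals 146, 147, 148, 165 and 166, and 8.98, 8.88, 8.91, 8.90 and 8.76 in WT animals 142, 144, 145, 199 and 206. Every SPI array lay above every other array, and the difference from WT was 0.80 ± 0.10, a 1.74-fold higher signal (limma adjusted p = 0.000141). The Rab31 call held without each array in turn, without the 3 dimmest arrays and with array brightness as a covariate. With median scaling over all probes Rab31 was at -0.42, which is 0.43 above the median of all features.

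Rab12, which sends receptors from recycling endosomes to lysosomes and is a substrate of the kinase LRRK2, had the largest fall in the background-corrected values. Its level was 5.32, 5.17, 4.42 and 5.71 in SPI, 7.04, 7.13, 5.22, 6.84 and 6.94 in SPE, and 7.43, 7.11, 7.66, 6.41 and 6.23 in WT, with animals in the order given for Rab31. All SPI arrays lay below all WT arrays, among SPE arrays only that of animal 148 reached the SPI range, and the probe was detected on 2 of 4 SPI arrays. Rab12 was lower in SPI than in WT by a difference of -1.80 ± 0.37, 3.48-fold (limma adjusted p = 0.00396). The size depended on background correction. Without it Rab12 was at -0.79 and Rab1b at -0.96, and with the deposited normalised values they were at -0.84 and -1.01. The Rab12 call was lost with median scaling over the probes detected on all 14 arrays (-0.99, limma adjusted p = 0.0688).

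Rab5a, an organiser of early endosome fusion, fell beside it. Rab5a was at 7.71, 7.52, 6.50 and 7.80 in SPI, 8.68, 8.85, 7.24, 8.87 and 8.94 in SPE, and 9.05, 9.09, 9.56, 8.36 and 8.42 in WT. Its difference in SPI was -1.49 ± 0.33, a 2.8-fold lower signal (limma adjusted p = 0.00583), the groups did not overlap, and a further Rab5a probe gave -0.90 ± 0.23 (adjusted p = 0.0118). For Rab12 and Rab5a alike, the dim arrays SPI 148, SPI 147 and SPE 148 were the lowest of their groups. The SPI arrays of animals 146 and 166 had mean signals of 362 and 331 units, below the 371 of WT 199, the dimmest WT array. These SPI arrays were below every WT array for both genes, and WT 199 itself read 6.41 for Rab12 and 8.36 for Rab5a. With array brightness as a covariate Rab12 stood at -1.27 and Rab5a at -1.03, and neither passed (adjusted p = 0.103 and 0.131).

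The promoters of the members with the largest falls and of Rab31 are shown for what the genes share in sequence, since nothing in the array data reads a promoter. That of Rab3b, whose rise of 0.82 was slightly larger than that of Rab31, is not shown. Each run is the 250 bases before the gene's start from RefSeq's table for GRCm38.p6, written 5′ to 3′ on the gene's strand. They are Rab12 at chr17:66519671-66519920 (minus strand), Rab5a at chr17:53478984-53479233 (plus strand), Rab1b at chr19:5106997-5107246 (minus strand) and, for a gene that rose, Rab31 at chr17:65772753-65773002 (minus strand). Capitals mark matches on either strand to the NRF1 box (GCGC, any base, then TGCGC), the E-box CACGTG, the cAMP response element TGACGTCA and the GC box GGGCGG.
Rab12: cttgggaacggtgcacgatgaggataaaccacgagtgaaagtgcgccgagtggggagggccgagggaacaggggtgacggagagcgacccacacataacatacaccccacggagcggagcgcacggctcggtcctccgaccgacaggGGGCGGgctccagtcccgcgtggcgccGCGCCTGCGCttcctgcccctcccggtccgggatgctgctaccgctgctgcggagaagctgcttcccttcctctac
Rab5a: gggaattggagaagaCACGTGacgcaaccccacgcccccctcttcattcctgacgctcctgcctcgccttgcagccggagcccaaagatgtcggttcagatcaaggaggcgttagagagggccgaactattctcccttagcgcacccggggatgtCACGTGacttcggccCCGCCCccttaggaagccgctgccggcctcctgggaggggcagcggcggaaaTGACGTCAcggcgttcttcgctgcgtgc
Rab1b: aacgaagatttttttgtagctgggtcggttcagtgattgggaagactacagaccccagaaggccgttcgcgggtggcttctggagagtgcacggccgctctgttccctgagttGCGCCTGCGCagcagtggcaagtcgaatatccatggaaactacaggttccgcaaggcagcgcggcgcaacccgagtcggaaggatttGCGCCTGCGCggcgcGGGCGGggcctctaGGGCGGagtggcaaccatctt
Rab31: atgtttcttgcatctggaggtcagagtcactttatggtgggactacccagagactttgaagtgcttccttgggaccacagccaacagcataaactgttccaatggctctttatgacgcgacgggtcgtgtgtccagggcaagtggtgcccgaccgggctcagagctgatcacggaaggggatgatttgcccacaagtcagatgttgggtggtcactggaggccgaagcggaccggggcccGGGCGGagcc
Counted as the bases between a motif and the start, the NRF1 box stood 66 bases before it in Rab12 and 127 and 40 bases before it in Rab1b. Rab5a held E-boxes at 229 and 89 bases and a cAMP response element at 20 bases from the start. A GC box was the only one of these motifs in Rab31, 4 bases from the start, and no marked motif shared a base with another in these promoters. Of 32851 promoters in the table, 3.74% held the NRF1 box, 6.02% the E-box, 1.55% the cAMP response element and 32.7% the GC box. Among the 42 of 46 measured members with a promoter in the table, 4 held the NRF1 box (Rab10, Rab12, Rab1b and Rab35), 5 the E-box and 33 the GC box, and the motifs were chosen after the sequences were seen. Members were counted by gene, any promoter of the gene being enough. The 32851 were counted by promoter, whether or not the gene was measured. Both counts are thus in unlike units and were not tested against each other.

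Rab5c, another isoform of the Rab5 group, differed the other way. It was at 9.78, 10.03, 10.16 and 9.64 in SPI, 9.36, 9.40, 9.88, 9.61 and 9.42 in SPE, and 9.39, 9.64, 9.41, 9.69 and 9.34 in WT. A difference of 0.42 ± 0.13 (limma adjusted p = 0.0346) came with 3 of 4 SPI arrays above all WT arrays. The call was lost without SPI 147, SPI 148, WT 142, WT 145 or WT 206 (0.34 to 0.40, adjusted p = 0.0639 to 0.114). Rab4a, which drives fast recycling to the cell surface, was lower by -0.37 ± 0.11 (adjusted p = 0.0243), with SPI at 9.28, 8.98, 9.45 and 9.39, SPE at 9.54, 9.46, 9.42, 9.46 and 9.49, and WT at 9.58, 9.61, 9.55, 9.73 and 9.74. All SPI arrays and all SPE arrays lay below all WT arrays for Rab4a, and the call was lost without SPI 147 (-0.27, adjusted p = 0.0529) or WT 206 (-0.34, adjusted p = 0.0542). Rab11a, of slow recycling, was at -0.66 ± 0.26 without passing (adjusted p = 0.076), while Rab11b read 0.08 ± 0.09. The other early and recycling members not called (Rab14, Rab15, Rab20, Rab21, Rab22a, Rab35 and Rab4b) lay between -0.18 and 0.55, the highest being Rab22a.

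**Figure D2:**
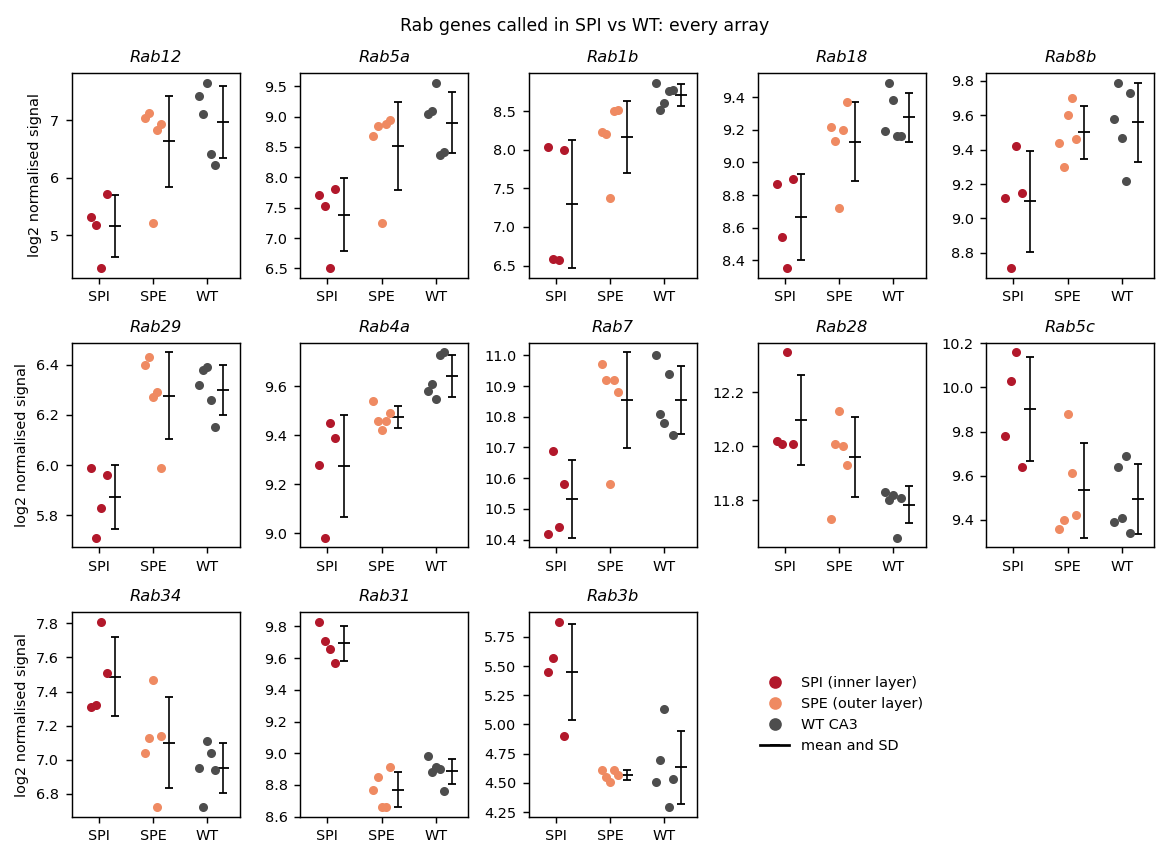
Log2 normalised signal of each array for the 13 Rab genes called in SPI vs WT, 1 panel a gene, with points for arrays and bars for mean and SD (SPI n = 4, SPE n = 5, WT n = 5). SPI and WT do not overlap for Rab12, Rab5a, Rab1b, Rab18, Rab29, Rab4a, Rab7, Rab28, Rab34 and Rab31, and SPE 148 is the low SPE point for Rab12, Rab5a, Rab1b, Rab18 and Rab7. Directions are relative to all features: with median scaling over all probes Rab28, Rab5c, Rab34 and Rab31 turned negative.

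In transport from the endoplasmic reticulum to and through the Golgi, 1 of 13 measured members was higher in SPI (Rab34) and 2 were lower (Rab1b and Rab18). Rab1b, which with Rab1a governs the step from the endoplasmic reticulum to the Golgi, was at 8.04, 6.58, 6.57 and 7.99 in SPI, 8.23, 8.21, 7.37, 8.50 and 8.52 in SPE, and 8.87, 8.52, 8.61, 8.76 and 8.77 in WT. The difference in SPI was -1.39 ± 0.30, 2.62-fold lower (limma adjusted p = 0.00471), and the dim SPI arrays of animals 147 and 148 lay far below the others. Both further probes of Rab1b gave -0.30 ± 0.15 and 0.03 ± 0.16 and did not pass, so 1 of 3 probes read the fall. With array brightness as a covariate Rab1b was at -0.59 (adjusted p = 0.145). Rab1a was at -0.10 ± 0.22.

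Rab18, a protein of the endoplasmic reticulum and of lipid droplets, was lower by -0.61 ± 0.14 (limma adjusted p = 0.00672). Its SPI levels of 8.87, 8.54, 8.35 and 8.90 all lay below the WT levels of 9.19, 9.49, 9.38, 9.16 and 9.16, while SPE held 9.22, 9.13, 8.72, 9.20 and 9.37. Rab34, which acts in lysosome positioning from the Golgi and in cilium formation, was higher by 0.50 ± 0.14 (adjusted p = 0.0213). SPI stood at 7.31, 7.32, 7.81 and 7.51, SPE at 7.04, 7.13, 7.47, 6.72 and 7.14, and WT at 6.95, 6.72, 7.11, 7.04 and 6.94, with no overlap of SPI and WT. A further Rab34 probe gave -0.10 ± 0.18, and without SPI 148 the call was lost at 0.42 (adjusted p = 0.0607). The 10 members not called lay between -0.40 (Rab36) and 0.19 (Rab6a), and they include the Golgi proteins Rab2a (0.01 ± 0.11), Rab6b (-0.08 ± 0.12), Rab33a (-0.27 ± 0.11) and Rab33b (0.06 ± 0.14).

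At late endosomes and lysosomes, 2 of 6 measured members were lower in SPI, none was higher, and the median difference was -0.215. Rab7 controls the fusion of late endosomes with lysosomes. It read 10.42, 10.69, 10.44 and 10.58 in SPI, 10.97, 10.92, 10.58, 10.92 and 10.88 in SPE, and 11.00, 10.81, 10.78, 10.94 and 10.74 in WT. This was a difference of -0.32 ± 0.11 (limma adjusted p = 0.0454), a call lost in 12 of the 14 fits that left out 1 array, all but those without SPI 147 and SPE 148 (-0.26 to -0.34, adjusted p = 0.0528 to 0.112). Both further Rab7 probes were lower by more, by -0.72 ± 0.23 and -1.27 ± 0.30 (adjusted p = 0.035 and 0.00727). They were dim, detected on 12 and 10 of 14 arrays. Their SPI levels of 4.39 to 5.44 and 4.31 to 5.46 lay near the lowest detected signals, so these sizes are uncertain.

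Rab29, which recruits LRRK2 to Golgi and lysosomal membranes, fell by a similar amount. Its levels were 5.99, 5.71, 5.83 and 5.96 in SPI, 6.40, 6.43, 6.27, 6.29 and 5.99 in SPE, and 6.32, 6.38, 6.39, 6.26 and 6.15 in WT, a difference of -0.43 ± 0.12 (limma adjusted p = 0.0172) with no overlap of SPI and WT. Rab29 turned to 0.06 when arrays were scaled on the median of the probes detected on all arrays, and was -0.28 relative to all features there. Rab24, of autophagy, Rab32, of lysosome-related organelles, Rab9b and Rab9, which returns cargo from late endosomes to the Golgi, were not called in SPI against WT and ranged from -0.23 to 0.46.

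Among the members of regulated secretion and transport to the plasma membrane, 1 of 10 was higher in SPI (Rab3b) and 1 lower (Rab8b). Rab3b is a synaptic vesicle protein that in the mouse hippocampus is required for long-term depression at inhibitory terminals. Its probe read 5.45, 5.57, 5.88 and 4.90 in SPI, 4.61, 4.55, 4.51, 4.61 and 4.57 in SPE, and 4.51, 4.70, 5.13, 4.29 and 4.53 in WT. It was detected on 3 of 4 SPI arrays, 0 of 5 SPE arrays and 1 of 5 WT arrays. The difference from WT was 0.82 ± 0.19 (limma adjusted p = 0.00665), and 3 of 4 SPI arrays lay above all WT arrays. Rab3b passed the filter of 4 detected arrays mainly through SPI, the group where it was high, so its call is not independent of that filter. With no detection filter it was at 0.82 (adjusted p = 0.0127). With no background correction Rab3b was at 0.26 (adjusted p = 0.0155), and the call was lost without the 3 dimmest arrays (0.54, adjusted p = 0.0547), with array brightness as a covariate (0.75, adjusted p = 0.102) and with median scaling over all probes (0.36, adjusted p = 0.147). Of 11 measured interneuron markers 8 were higher in SPI and 2 lower. Gad1 was higher by 1.20 ± 0.18 and Slc32a1, the vesicular GABA transporter, by 1.18 ± 0.19, while Cck was lower at -0.39 ± 0.13 and Nos1 at -0.69 ± 0.23, and the part of these markers in the Rab3b result was not tested.

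Rab3a, the main Rab3 protein of synaptic vesicles, was not called, at 12.72, 13.13, 12.74 and 13.09 in SPI, 12.96, 12.98, 12.90, 12.81 and 12.91 in SPE, and 12.58, 12.95, 12.90, 13.13 and 13.06 in WT. Its difference in SPI was -0.01 with a 95% interval from -0.29 to 0.27, and that of Rab3d was -0.07 ± 0.11. Rab8b, which brings Golgi carriers to the plasma membrane, read 9.12, 8.71, 9.42 and 9.15 in SPI, 9.44, 9.30, 9.60, 9.70 and 9.46 in SPE, and 9.58, 9.79, 9.47, 9.22 and 9.73 in WT. A difference of -0.44 ± 0.15 (limma adjusted p = 0.0389) came with 3 of 4 SPI arrays below all WT arrays. A further Rab8b probe of similar mean level (9.35, beside 9.41) gave -0.21 ± 0.17 and did not pass. Its SPI levels of 8.94 to 9.76 spanned its WT levels of 9.00 to 9.74. With the mean of the gene's probes the Rab8b call was lost (-0.33, limma adjusted p = 0.131). The Rab8b call held in 5 of the 14 fits that left out 1 array, those without SPI 148, SPI 166, SPE 148, SPE 165 or WT 199, and was lost in the other 9 (-0.33 to -0.46, adjusted p = 0.0503 to 0.0869). Rab8a was at 0.27 ± 0.10 without passing (adjusted p = 0.0573), although every SPI array (9.94 to 10.16) lay above every WT array (9.68 to 9.86). Rab27a, of secretory granules, was at -0.00 ± 0.13, and Rab10, Rab13, Rab40b and Rab40c lay between -0.22 and 0.09.

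The remaining 3 members have ciliary or other roles. Rab28, linked to the photoreceptor outer segment and to cilia, read 12.02, 12.01, 12.35 and 12.01 in SPI, 11.73, 12.01, 12.13, 12.00 and 11.93 in SPE, and 11.83, 11.80, 11.82, 11.66 and 11.81 in WT. All SPI arrays were above all WT arrays, by 0.32 ± 0.10 (limma adjusted p = 0.039), while a further Rab28 probe gave -0.24 ± 0.12. The Rab28 call held in 5 of the 14 fits that left out 1 array, those without SPI 147, SPI 166, SPE 146, SPE 147 or SPE 148, and was lost in the other 9 (0.23 to 0.33, adjusted p = 0.0517 to 0.128). Rab23, a repressor of Hedgehog signalling, was not detected on any SPI array, on 4 of 5 SPE arrays and on 4 of 5 WT arrays. At -0.49 ± 0.17 it did not pass (adjusted p = 0.0521), and since its WT level was no higher than the lowest detected signals of the SPI arrays, no fold could be set. Rab42 was at 0.23 ± 0.12.

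**Figure D3:**
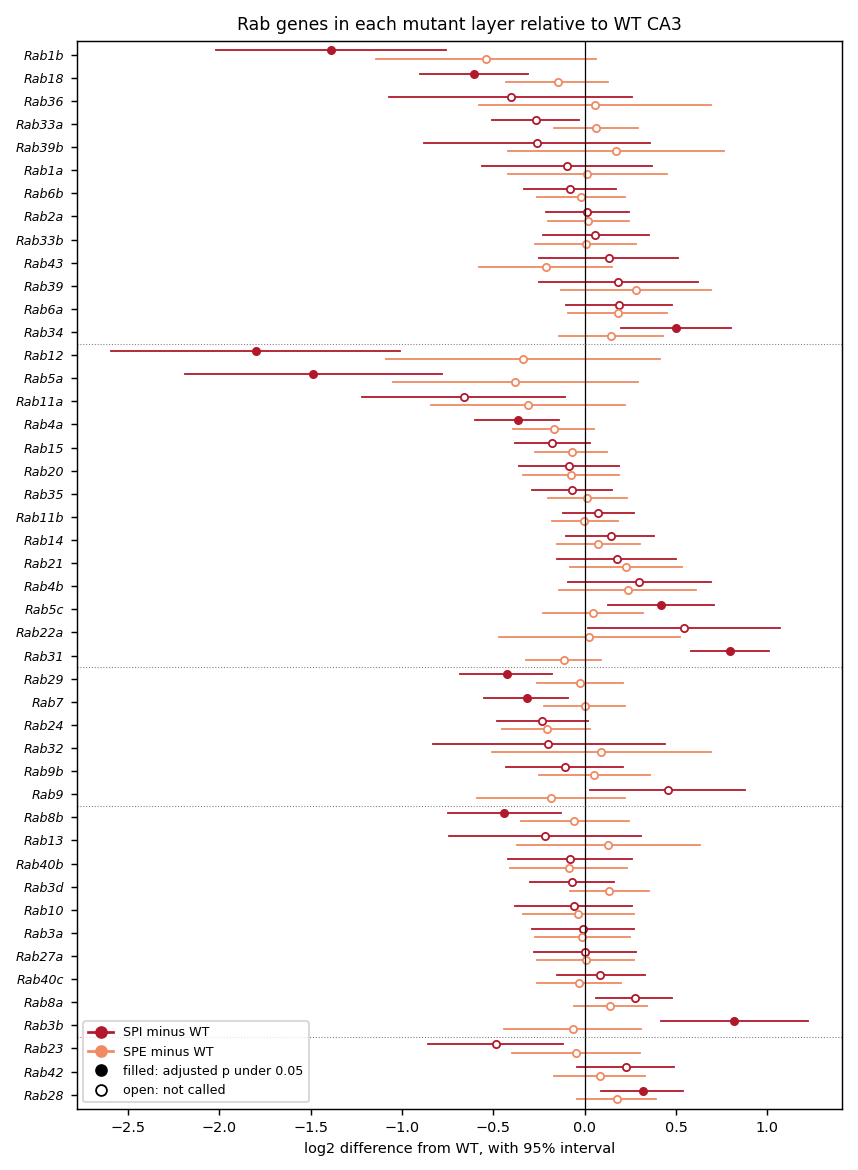
Log2 difference from WT of each of the 46 Rab genes in SPI and in SPE, with 95% intervals from the limma fit; filled points passed an adjusted p under 0.05 and dotted lines part the compartments. Filled points lie only in SPI, 5 to the right of 0 (Rab34, Rab5c, Rab31, Rab3b and Rab28) and 8 to the left. With median scaling over all probes 4 of the 5 on the right (all but Rab3b) turned negative, together with the median of all features.

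In the outer layer no Rab gene differed from WT, 0 of 46 called against a background of 0% of all features in the same limma fit. At an unadjusted p under 0.05 there were also 0 of 46, beside 3.83% of all features. Differences ran from -0.54 to 0.28 with a median of 0.002, beside 0.036 for all features. The smallest p-values belonged to Rab1b (-0.54, 95% interval -1.14 to 0.06), Rab24 (-0.21, interval -0.45 to 0.03) and Rab28 (0.18, interval -0.04 to 0.39), each with a limma adjusted p of 0.904. For Rab1b the interval reaches to a fall nearly as large as the one measured in SPI, so a missed call in SPE does not show that the outer layer matched WT. Groups did not overlap for 1 member, Rab4a, at -0.17 ± 0.10, which is 2.17% of the members beside 1.62% of all features. Rab31, with every SPE array between 8.66 and 8.91, was at -0.11 ± 0.10 in SPE.

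The inner layer was then set directly against the outer one, mostly within the same animals (4 of 5 mutants gave both). In this comparison 13 of 46 Rab genes differed, 28.3% beside a background of 20.5% of all features, with 4 higher and 9 lower in SPI, and 18 were under 0.05 unadjusted beside 35% of all features. It shares the SPI arrays with the comparison against WT and is therefore no separate support for it. Rab31 was higher in SPI than in SPE by 0.91 ± 0.08 (limma adjusted p = 5.64e-06) and Rab3b by 0.88 ± 0.16 (adjusted p = 0.00146), where the signal in SPI was at least 1.56-fold that in SPE, a bound because Rab3b was not detected in SPE. Rab9 was higher by 0.64 ± 0.17, its highest SPI arrays being those of animals 147 (6.38) and 148 (6.21), and Rab5c by 0.37 ± 0.11. A further Rab9 probe passed in the opposite direction, at -0.64 ± 0.19 (limma adjusted p = 0.0271 over 12140 probes), and the mean of both Rab9 probes gave 0.00 (adjusted p = 0.999).

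Lower in SPI than in SPE were Rab12 (-1.46 ± 0.31), Rab5a (-1.11 ± 0.28), Rab1b (-0.85 ± 0.25), Rab18 (-0.46 ± 0.12), Rab23 (-0.44 ± 0.15), Rab29 (-0.40 ± 0.10), Rab8b (-0.39 ± 0.12), Rab33a (-0.33 ± 0.10) and Rab7 (-0.32 ± 0.09), with limma adjusted p-values of 0.00497 to 0.0451. Rab23 was not detected on any SPI array and its SPE level was no higher than the lowest detected signals there, so its value compares signals at background and no fold could be set. Rab33a, of Golgi-derived and axonal vesicles, read 9.03, 8.87, 9.29 and 9.17 in SPI and 9.51, 9.52, 9.32, 9.36 and 9.39 in SPE, without overlap. Groups also did not overlap for Rab23, Rab31 and Rab3b, 4 members or 8.7% in all, beside 9.99% of all features. Within animal 148, whose SPE array was also dim, Rab12 read 4.42 in SPI and 5.22 in SPE, Rab5a 6.50 in SPI and 7.24 in SPE, and Rab1b 6.57 in SPI and 7.37 in SPE. Without the SPI array of that animal the count fell to 4, beside 10.4% of all features. It was 8 without SPI 146 (19.5% of all features) or SPE 146 (15.3%). Without the 3 dimmest arrays it was 6, with 4 of the 13 kept, beside 12.8%. With array brightness as a covariate it was 4, with Rab31 and Rab3b kept, beside 8.35%. Without the animal block the count was 4 as well, beside 11.4%. With fixed terms for the 4 animals it was 3 (Rab31, Rab12 and Rab5a), beside 3.81%. Rab31 was called in each of the 14 fits that left out 1 array and Rab3b in the 10 in which it passed the detection filter, and the other 11 lost the call in at least 1. With median scaling over all probes 0 members passed in limma, beside 0% of all features, 33 members being under 0.05 unadjusted. With median scaling over the detected probes 5 were higher and 4 lower, beside 20.3% of all features called. Relative to the median of all features 12 of the 13 kept their direction under both scalings, and Rab23 turned to 0.27 and 0.26.

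Where a Rab gene had more than 1 measured probe, the probes often disagreed. There were 16 further probes for 12 genes, and 9 of them had the sign of the brightest probe in SPI against WT. For the called genes 5 of 8 further probes shared the sign and 3 of 8 also passed in the same direction (1 of Rab5a and the 2 dim ones of Rab7). Rab6a, which moves Golgi membranes back to the endoplasmic reticulum and carries vesicles to the surface, had the widest split. Its brightest probe gave 0.19 ± 0.13 and a further one 0.22 ± 0.17, while another gave -2.37 ± 0.61 (limma adjusted p = 0.0117 over 12140 probes). That probe read 8.42, 4.49, 6.88 and 8.04 in SPI, 9.64, 9.02, 7.98, 9.51 and 9.78 in SPE, and 9.65, 9.47, 9.82, 8.76 and 9.09 in WT, and fell lowest on the dimmest array, SPI 147. A lower value on 1 probe was also seen for Rab24 (-1.24 ± 0.32, against -0.21 ± 0.13 and the -0.23 ± 0.12 of the brightest probe) and Rab9 (-0.73 ± 0.22, against 0.46 ± 0.20). The sources used here do not give which transcript ends these probes match, and the part of RNA quality was not tested.

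**Figure D4:**
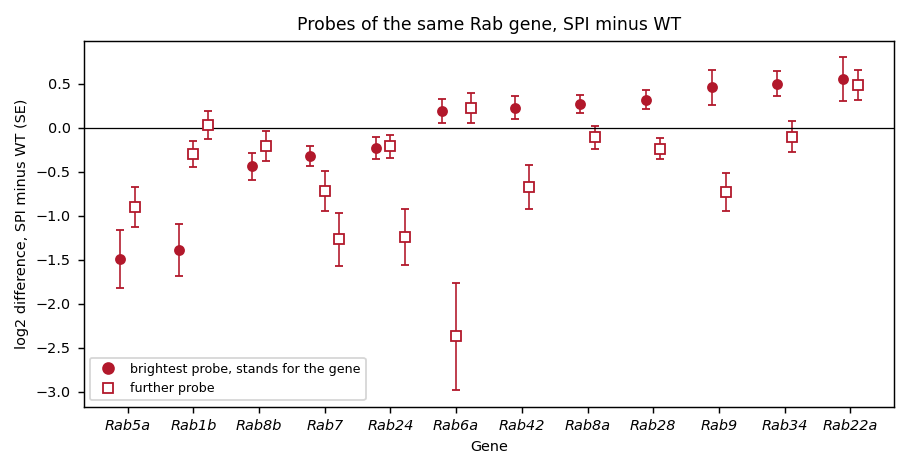
Log2 difference of SPI minus WT for each measured probe of the 12 Rab genes with more than 1, with SE bars; filled circles are the brightest probe, which stands for the gene, and open squares further probes. Probes of Rab5a, Rab8b, Rab7, Rab24 and Rab22a lie on 1 side of 0, while those of Rab1b, Rab6a, Rab42, Rab8a, Rab28, Rab9 and Rab34 lie on both, and a Rab6a probe reaches -2.37.

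Paralogs were compared as the log2 ratio of 2 genes on the same array, centred on its WT mean, a value that scaling an array by a factor leaves as it is. Among 13 such pairs from 11 groups of paralogs, the SPI values stood clear of the WT values in 4, given here as a description without a test. Each of the 4 holds a member already called in SPI against WT, and Rab3b was detected on 1 of 5 WT arrays. The share of all gene pairs that stand clear was not counted, so the 4 have no background, while for single features that share was 21.5%. The ratio of Rab5a to Rab5c was -3.06 to -1.24 in SPI, -2.04 to 0.11 in SPE and -0.73 to 0.75 in WT, the widest shift. Rab8a relative to Rab8b stood at 0.49 to 1.23 in SPI, -0.08 to 0.38 in SPE and -0.32 to 0.40 in WT. Rab4a relative to Rab4b was -1.54 to -0.32 in SPI, -0.66 to -0.13 in SPE and -0.29 to 0.47 in WT, and Rab3b relative to Rab3d was 0.32 to 1.18 in SPI, -0.34 to 0.07 in SPE and -0.36 to 0.32 in WT. On the brightest probes, the a form and the b or c form within the Rab5, Rab8 and Rab4 groups thus shifted unequally between SPI and WT. For Rab8 the further probes gave -0.11 ± 0.13 for Rab8a and -0.21 ± 0.17 for Rab8b in SPI against WT. Both were of the same sign and neither passed, so the Rab8 shift rests on the brightest probes. The ratios of Rab1a to Rab1b, Rab11a to Rab11b, Rab6a to Rab6b and Rab33a to Rab33b overlapped between SPI and WT. So did those of Rab39 to Rab39b, Rab40b to Rab40c, Rab9 to Rab9b and Rab3a to Rab3b or Rab3d.

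**Figure D5:**
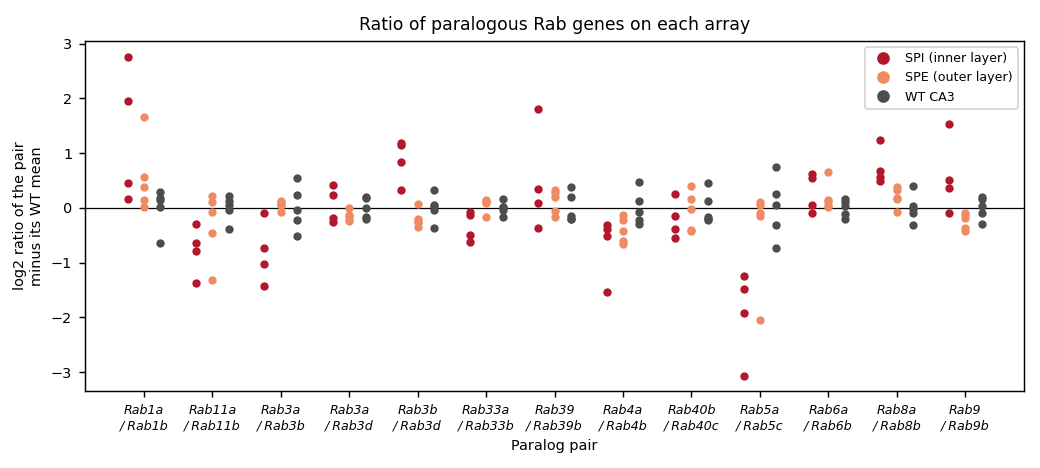
Log2 ratio of paralogous Rab genes on each array minus the mean ratio of the WT arrays, for 13 pairs, with 1 point an array (SPI n = 4, SPE n = 5, WT n = 5). Each gene is read on its brightest probe. Rab5a relative to Rab5c lies below every WT array on all 4 SPI arrays and at -2.04 on SPE 148, and Rab8a relative to Rab8b lies above every WT array in SPI.

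The proteins that load, switch and read Rab proteins were counted in SPI against WT beside the same background of 24.5%. Of 5 measured genes of delivery and prenylation, 1 was lower and none higher. That was Rabif, also called Mss4, which holds nucleotide-free Rab proteins (-0.89 ± 0.13, limma adjusted p = 0.000477). Of 33 exchange factors, 4 were higher and 5 lower. They included Rin2, an exchange factor of the Rab5 group (0.97 ± 0.16, adjusted p = 0.000976), the TRAPP subunit Trappc2 (-1.31 ± 0.32, adjusted p = 0.00991) and Dennd2a, which acts on Rab9 (0.50 ± 0.12, adjusted p = 0.0105).

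GTPase-activating proteins showed 5 higher and 3 lower of 27. Usp6nl, which acts on Rab5, was at 0.80 ± 0.18 (limma adjusted p = 0.00567) and Tbc1d9 at -1.08 ± 0.26 (adjusted p = 0.0102). Tbc1d22b was not detected on any SPI array and was by the group means at least 1.14-fold lower there than in WT (adjusted p = 0.00102). Of 48 genes listed as effectors, Rab-binding proteins or their relatives, 6 were higher and 5 lower. Rims3, a short RIM protein of the presynaptic active zone, was at 1.67 ± 0.18 (adjusted p = 4.94e-05), and the motor myosin Va (Myo5a) at -0.70 ± 0.16 (adjusted p = 0.00585). Other RIM genes did not rise with Rims3, with Rims2 called lower at -0.62 ± 0.17 (adjusted p = 0.0176) and Rims1 not called at -0.46 ± 0.35. Sytl4, or granuphilin, a Rab27 effector of secretory granules, was not detected on any WT array and was by the group means at least 1.33-fold higher in SPI (adjusted p = 0.0038). It was detected on 3 SPI arrays, 1 SPE array and 0 WT arrays, so it passed the filter mainly through the group where it was high. In SPE none of the genes in these lists was called against WT.

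The 11 Rab genes that were not measured were Rab17, Rab19, Rab25, Rab27b, Rab2b, Rab30, Rab37, Rab38, Rab3c, Rab44 and Rab7b. Rab37 came nearest to the filter, being detected on 3 arrays (2 SPE and 1 WT), Rab27b was detected on 1 SPE array, and the other 9 were detected on 0 arrays. Several of those belong to epithelial or pigment cells, Rab17 and Rab25 to epithelia and Rab38 to melanosomes, but Rab3c is a neuronal gene, so a probe without signal does not show that the transcript is absent.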

How the data were processed

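RNA of 14 mouse CA3 samples (SPI 4, SPE 5 and WT 5 arrays) was read on Illumina bead arrays. The authors deposited, per the file headers, linear bead intensity for 25697 probes with a detection p-value per probe and array, which moves in steps of 1 in 798. Background had not been subtracted. The deposited normalised intensity had 1 shared distribution (column medians 104.1 to 104.4), and BeadStudio is named without a version in the submitters' processing notes. The number of arrays limits the precision.

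Signals were background-corrected from the detection p-values, offset by 16, quantile-normalised and put on the log2 scale (neqc, limma 3.58.1, R 4.3.3). Probes detected (p under 0.05) on 4 arrays or more were kept, 12140 in all. The brightest probe stood for each gene, and unnamed probes stood for themselves, which gave 9355 features. Of the probes, 23978 had 1 gene symbol, 0 several and 1719 none, and 23962 were matched by Entrez ID with 0 symbols changed. The values below the lowest detected signal gave bounds in place of folds. Such a bound sets the mean of the brighter group against the mean, per array of the dimmer group, of the higher of the lowest detected signal and the probe's own. It leaves out the spread between arrays.

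All 3 groups were fitted together in limma, with the animal as a random block (correlation 0.319), two-sided, and Benjamini-Hochberg adjustment over all features. The procedure was tested on simulated data. The labels tie SPI and SPE of 4 animals to the same mouse, and deviations from the group mean in those pairs correlated at 0.131 to 0.626 over features, with the same animal the best match for 3 of 4. The sources used here do not give the chip or scan of a sample, so such batches were not tested. The labels name 10 animals, and the p-values measure the spread between these pooled samples.

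Named with values were every member called in SPI against WT or SPE, the 3 smallest p in SPE against WT and whole paralog groups. Up to 3 called genes of each regulator list were also named, with Rims2 and Rims1 given beside Rims3. The largest changes have their array values. Members, gene lists and tests were chosen with earlier results of these data known. Alternatives covered background, scaling, source table, detection filter, probe choice, block, arrays fitted, array weights and brightness, and 1 scaling was added after seeing the data.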

Additional observations from a re-analysis of the deposited data

Results flagged for a closer look

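Among 138 groups of arrays (46 Rab genes in SPI, SPE and WT), 14 held an array far from the rest of its group, where chance gives about 1 in 20. Of these, 8 were the SPE array of animal 148. That array was lowest for Rab12 at 5.22 (other SPE arrays 6.84 to 7.13), Rab1b at 7.37 (8.21 to 8.52), Rab5a at 7.24 (8.68 to 8.94) and Rab7 at 10.58 (10.88 to 10.97). It was highest for Rab2a at 13.45 (13.15 to 13.21), Rab39b at 6.50 (5.66 to 5.85), Rab6a at 10.42 (9.90 to 9.98) and Rab8a at 10.15 (9.84 to 9.90). Rab28 stood apart high on SPI 148 at 12.35 (other SPI arrays 12.01 to 12.02) and low on WT 199 at 11.66 (other WT arrays 11.80 to 11.83). The SPI array of animal 147 was low for Rab35 at 10.04 (10.40 to 10.41) and Rab6b at 12.79 (13.15 to 13.20). SPE 165 was low for Rab3d at 7.86 (8.14 to 8.18) and WT 142 for Rab1a at 7.83 (8.38 to 8.50).

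The change from WT differed between the layers for 13 Rab genes, 28.3% beside 20.5% of all features (limma adjusted p under 0.05). This is the comparison of SPI with SPE given above and not a further test. Rab12 differed by -1.46, Rab5a by -1.11, Rab1b by -0.85, Rab18 by -0.46, Rab23 by -0.44 and Rab29 by -0.40 on the log2 scale. Rab8b differed by -0.39, Rab33a by -0.33 and Rab7 by -0.32, whereas Rab5c differed by 0.37, Rab9 by 0.64, Rab3b by 0.88 and Rab31 by 0.91. A further Rab9 probe gave the opposite sign, at -0.64 ± 0.19. Rab23 on all SPI arrays and Rab3b on all SPE arrays were not detected. For Rab23 no fold could be set, and for Rab3b the signal in SPI was by the group means at least 1.56-fold that in SPE.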

How the results depend on the processing

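The count of 13 Rab genes called in SPI against WT lay between 9 and 18 under no background correction, the deposited normalised values, 4 other detection filters, the mean of a gene's probes, array weights, no 3 dimmest arrays and the scaling added after seeing the data. The share of all features called under these settings lay between 11.1% and 34.1%. The count was 24 with median scaling over all probes (43% of all features), 2 with array brightness as a covariate (5.38%) and 8 with only the groups compared (18.3%). With every probe as a feature it was 20 of 62, beside 26.1% of all 12140 probes. Leaving out 1 array gave 8 (without WT 145, 17.4%) to 16 (without SPE 148, 28.2%). Without the animal block the count was 14 (24.6%). In SPE against WT limma called 0 under every setting, with 0 to 3 at an unadjusted p under 0.05.

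For SPI against SPE the count of 13 became 4 without the animal block, which the labels pair (11.4% of all features called), and 3 with fixed animal terms (3.81%). It was 0 with median scaling (0% of all features), 7 with no detection filter (7.03%) and 4 with array brightness as a covariate (8.35%). It was 6 without the 3 dimmest arrays (12.8%), 8 with only the groups compared (12.6%) and 20 of 62 with every probe (21.7%). Leaving out 1 array gave 4 (without SPI 148, 10.4%) to 13, with 8 without SPI 146 (19.5%) and 8 without SPE 146 (15.3%). The cause of these moves was not tested, except that fewer arrays entered some fits.

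Directions turned under median scaling, whose median runs over 25697 probes of which 12140 passed the filter. Among members called before or after the change, those in SPI against WT were Rab28 at -0.74, Rab31 at -0.42, Rab34 at -0.60, Rab5c at -0.79, Rab40c at -1.08 and Rab4b at -0.95, and in SPI against SPE Rab31 at -0.08 and Rab5c at -0.66. Members called under neither, such as Rab8a, are not listed. Under the added scaling Rab29 turned to 0.06 and Rab40b to 1.08 against WT, and Rab23 to 0.51 and Rab29 to 0.09 against SPE. Averaged over its probes, Rab6a turned to -0.65 against WT and -0.74 against SPE. A dim probe is limited by its distance from background, and Rab12 went undetected on 2 of 4 SPI arrays, Rab23 on all SPI arrays and Rab3b on all SPE arrays.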
